A study of Mus musculus with 6 samples.

Results

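Growth hormone signalling and the output of Igf1 in the liver were followed through 9 genes: the growth hormone receptor Ghr, the transcription factors Stat5a and Stat5b, the feedback genes Socs2 and Cish, the repressor Bcl6, the products Igf1 and Igfals, and the prolactin receptor Prlr. Members were the probes whose gene name on the array equals one of these symbols, which gave 20 probes of the 41174 on the array. Ghr has 5 of them, Stat5b, Igf1 and Prlr have 3 each, Socs2 has 2, and Stat5a, Cish, Bcl6 and Igfals have 1 each. A gene with more than 1 probe is represented by the brightest, and the others are given beside it. Male 129/Sv mice, 6 to 8 weeks old at the start, received either a Lieber-DeCarli liquid diet with 4% ethanol or an isocaloric control diet in which maltose dextran replaced the ethanol, for 1, 2 or 4 months. Mice of both groups had been adapted to the control liquid diet beforehand. Liver RNA of 6 mice was pooled for each diet and month, so that 6 pools were measured, and the alcohol pool and the control pool of a month were hybridized together on 2 two-color arrays with exchanged dyes. Since both arrays of a month hold the same pools they form 1 replicate, and the spread between mice was not measured.

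Growth hormone from the pituitary binds its receptor on hepatocytes, and the receptor-bound kinase JAK2 then activates STAT5. STAT5 enters the nucleus, binds the motif TTCNNNGAA, induces Igf1 and Igfals together with the inhibitors Socs2 and Cish, and represses Bcl6, a repressor whose own recognition sequence resembles that of STAT5. Growth hormone is secreted in pulses in males and more steadily in females, and this pattern sets much of the sex difference in liver gene expression. In mouse liver Bcl6 is known as higher in males and Prlr as higher in females.

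Promoter sequences are shown for the 3 genes that moved most evenly on both arrays of a month and whose promoter holds the STAT5 motif, so that a reader can see the sites beside the values. They come from RefSeq on the build GRCm38.p6, run 5′ to 3′ on the strand of the gene from 250 bases before to 30 bases after the annotated start, and carry the motif TTCNNNGAA in capitals. The first is Cish on the plus strand at chr9:107296409-107296688, the second Bcl6 on the minus strand at chr16:23981254-23981533, and the third Prlr on the plus strand at chr15:10223656-10223935.
Cish: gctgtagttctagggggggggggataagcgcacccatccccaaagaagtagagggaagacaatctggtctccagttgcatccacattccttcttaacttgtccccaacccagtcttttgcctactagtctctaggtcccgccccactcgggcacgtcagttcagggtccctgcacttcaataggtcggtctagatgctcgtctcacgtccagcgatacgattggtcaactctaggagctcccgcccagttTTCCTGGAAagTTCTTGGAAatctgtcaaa
Bcl6: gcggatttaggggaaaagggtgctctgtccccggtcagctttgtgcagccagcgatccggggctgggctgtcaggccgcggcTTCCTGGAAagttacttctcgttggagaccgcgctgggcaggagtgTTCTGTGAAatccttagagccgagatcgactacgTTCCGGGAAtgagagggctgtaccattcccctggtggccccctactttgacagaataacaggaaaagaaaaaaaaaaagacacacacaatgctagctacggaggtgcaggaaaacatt
Prlr: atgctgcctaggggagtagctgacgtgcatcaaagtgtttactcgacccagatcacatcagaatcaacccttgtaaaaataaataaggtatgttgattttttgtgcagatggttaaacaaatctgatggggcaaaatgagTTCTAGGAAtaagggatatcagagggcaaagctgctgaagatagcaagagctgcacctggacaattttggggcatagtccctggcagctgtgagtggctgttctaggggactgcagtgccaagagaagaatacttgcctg
In the Cish promoter one motif begins at the start site and another 11 bases after it, and in the Bcl6 promoter shown they begin 168, 122 and 88 bases before the start. The other of the 2 annotated Bcl6 promoters holds 1 motif, 118 bases before its start. The Prlr motif begins 110 bases before the start of one of the 3 annotated Prlr promoters. The motif reads the same on both strands, no other motif was searched, and 8.30% of the 32841 RefSeq promoters of 300 bases hold it, with 0.457% holding it more than once. Among the 16 promoters matched by symbol to 8 of the 9 genes, 6 promoters of 4 genes held it, with Igfals the remaining gene. Socs2 was not matched. A match is a string of letters in this window and not a measured binding site.

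Every spot was read as a background-corrected and dye-normalized signal in each channel, and every ratio below is the log2 of alcohol over control, averaged over the 2 arrays of the month. The SD given beside an average is that between the 2 arrays of the pair. Those arrays carry the same pools with exchanged dyes. This SD thus includes any difference by dye and is not an error of the average. The share of spots well above background ranged from 73.3% to 90.3% over the channels, and no member spot was saturated. The 1-month arrays shared one slide and the later 4 arrays another, so that month 1 against the later months and slide against slide cannot be told apart. The ratio of the brightest probe had the same sign on both arrays for 47.8% of the 25632 gene names at 1 month, 33.9% at 2 months and 29.2% at 4 months, and for 6, 5 and 5 of the 9 genes. The 6 hepatocyte markers tested passed the scanner's background test in both pools on every array. Some markers passed 1.5-fold with the same direction on both arrays. Over all gene names between 0.507% and 1.95% did so in each month and direction. Of the hepatocyte markers, Tat was raised in the alcohol pool at 2 and 4 months, the latter by 1.34 on one array and 0.029 on the other, and Alb at 4 months. Among other cells the endothelial markers Lyve1 and Cdh5 were raised at 1 month, the Kupffer markers Adgre1 at 1 month (1.23) and Marco at 2 months (0.61), and 4 of 7 pancreatic acinar markers at 4 months, while the stellate marker Reln was lowered at 4 months (-0.67). The red cell markers went both ways, with Hba-a1 raised at 1 and 4 months (1.51 and 0.61) and Alas2 lowered at 2 and 4 months (-0.75 and -2.0). The summed linear level of the 5 endothelial markers lay between 2.63 and 3.78 in the alcohol pools and between 2.53 and 2.88 in the control pools, that of the 7 acinar markers between 14.1 and 19.5 against 14.2 and 15.3, and that of the 3 red cell markers between 18.2 and 36.9 against 14.7 and 24.7. For the 6 hepatocyte markers it was 98.6 to 182 against 87.4 to 192, and within the second slide it went from 178 at 2 months to 98.6 at 4 months in the alcohol pools and from 162 to 87.4 in the control pools. For Kupffer cells it was 25.9 to 43.1 against 24.3 to 42.6, for stellate cells 10.6 to 13.4 against 12.3 to 12.8, for bile duct cells 22.3 to 27.9 against 21.9 to 28.0 and for lymphocytes 4.00 to 4.74 against 4.10 to 4.83. Among all markers only the acinar genes Cela2a and Cpb1 were not well above background in every channel. The part of these cell types in the results below was not tested.

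The genes that stood out were Bcl6 and Prlr at 1 month and Cish at 2 and 4 months. After 1 month of alcohol Bcl6 was 2.31-fold lower and Prlr 1.65-fold higher in the alcohol pool, and at 2 and 4 months both were within 1.17-fold of control. Cish was 3.18-fold lower at 2 months. At 4 months its log2 ratio was -1.04 on the 1 array that measured both pools, and the average of 2.50-fold lower includes an array on which the alcohol pool was not well above background. Igf1, Igfals, Socs2, Stat5a and Stat5b did not pass 1.5-fold at any month by their brightest probes. A dimmer Igf1 probe was below 0 on all 6 arrays and 2.41-fold lower at 2 months, and the Igf1 probes disagree. In whole liver, fewer cells of a type and less RNA per cell cannot be told apart. At 1 month the ratios of Igfbp1 and Abcd2 given below differ from those in the paper, and at 2 and 4 months they are close. The reason was not tested.

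A gene was called raised or lowered in a month if the pair average reached 1.5-fold and both arrays had that direction. This is a rule of size and not a test, since each month holds 1 pool of each diet. At 1 month 1 of the 9 genes was raised, where 0.507% of all gene names were, and 1 was lowered, where 0.562% were. At 2 months 0 were raised against 1.05% of all gene names and 1 was lowered against 1.18%. At 4 months 0 were raised against 1.95% and 2 were lowered against 1.30%, the second being Ghr, whose lower average came almost wholly from 1 of the 2 arrays. Over the 9 genes the monthly medians of the log2 ratio were 0.054, -0.19 and 0.045 in order of time, beside 0, 0.015 and -0.0031 over all gene names.

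**Figure D1:**
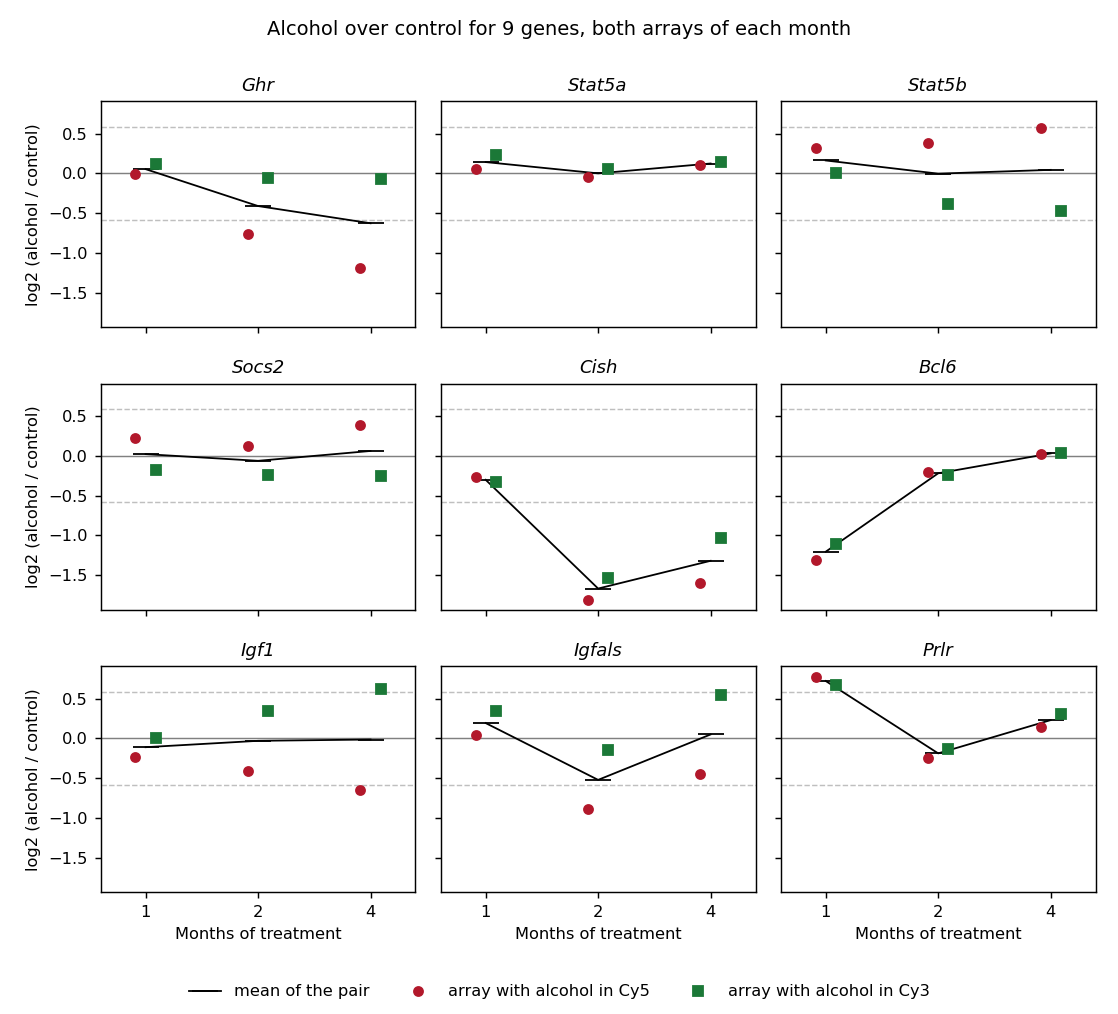
Log2 ratio of alcohol over control (vertical axis) of the brightest probe of each of the 9 genes after 1, 2 and 4 months of treatment (horizontal axis); circles are the array with alcohol in Cy5, squares the array with alcohol in Cy3, black bars the mean of the pair, and dashed lines 1.5-fold. The 2 arrays lie close together in every month for Bcl6, Prlr and Stat5a, differ at 4 months for Cish (-1.60 and -1.04), and lie on opposite sides of 0 at 4 months for Igf1, Igfals, Stat5b and Socs2.

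Across the 3 months as replicates, limma called 0 of the 37922 probes tested at an adjusted p under 0.05 for the effect of alcohol, a share of 0%, and the smallest adjusted p was 0.106. At an unadjusted p under 0.05 it called 3028 probes, or 7.98%, and 4 of the 20 member probes: those of Cish, 2 of Ghr and 1 of Igf1. The adjusted p of the members lay between 0.620 and 0.997. For the slope on treatment time in log2 months, limma called 0 probes at an adjusted p under 0.05 (lowest 0.616) and 2813, or 7.42%, at an unadjusted one. Among the members 5 of 20 probes had an unadjusted p under 0.05 for the slope, those of Bcl6, 2 of Ghr and 2 of Prlr, with adjusted p of all 20 between 0.627 and 1. These p-values measure the spread between months, each with its own pools, and not between mice.

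Bcl6, the repressor that STAT5 holds down, was lower in the alcohol pool at 1 month, at -1.31 and -1.10 in log2 ratio on the pair. The average was -1.21 (SD 0.14). The 2-month arrays gave -0.20 and -0.24, and the 4-month arrays 0.022 and 0.040. Both arrays of each month were thus close together. The difference between the pools was largest at 1 month, and the step from 1 to 2 months spans the 2 slides. The limma slope was 0.62 (SE 0.13) per doubling of the treatment time, with an adjusted p of 0.627.

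The log2 level of Bcl6, relative to the 75th percentile of its channel, was 1.34, 0.85 and 0.56 in the alcohol pools at 1, 2 and 4 months. In the control pools it was 2.54, 1.08 and 0.53. The lower ratio at 1 month thus belonged with a control pool that was higher than any other pool, and the control level was lower by 1.46 at 2 months than at 1 month, a step that spans the slides. Within the second slide, the 4-month level minus the 2-month level was -0.55 in the control pools and -0.29 in the alcohol pools, and both arrays gave that direction in both. After loess and Aquantile normalization these values were -0.53 and -0.28.

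Prlr, the receptor for prolactin and a gene higher in female liver, was raised at 1 month by 0.78 and 0.67 on the 2 arrays, an average of 0.72 (SD 0.078) or 1.65-fold. Its 2-month arrays gave -0.24 and -0.14 and its 4-month arrays 0.15 and 0.31. The 2 arrays of a month always had one sign, which was positive at 1 and 4 months and negative at 2 months. The averages of the later months stayed within 1.5-fold.

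The other probes of Prlr also were higher in the alcohol pool at 1 month. The probe A_52_P602987 gave 1.55 and 1.63 on the 2 arrays and A_51_P264673 gave 0.47 and 0.52. In the control pool of that month both probes failed the background test on each array, so their measured ratios bound nothing from above. Set against the lowest signal well above background, the alcohol pool was at least 1.46-fold higher by the first and at least 1.23-fold higher by the second; such limits use single channels after loess and Aquantile normalization, averaged over both dye orientations. At 2 and 4 months the averages of these probes lay between -0.18 and 0.15, inside 1.5-fold.

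The log2 level of Prlr by its brightest probe was 0.58, 0.57 and 0.53 in the alcohol pools at 1, 2 and 4 months, and -0.14, 0.77 and 0.30 in the control pools. The alcohol pools spanned 0.0497 over the months and the control pools 0.91, the lowest of them at 1 month on the first slide. These spans depend on the scaling, since they were 0.24 and 0.73 after Aquantile normalization and 0.53 and 1.44 relative to the median of the channel. For Bcl6 the alcohol pools spanned 0.77 and the control pools 2.01, against 0.97 and 2.15 after Aquantile normalization and 0.28 and 1.46 relative to the channel median. Each month has 1 pool per diet, so mice, age and slide cannot be told apart in these spans.

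**Figure D2:**
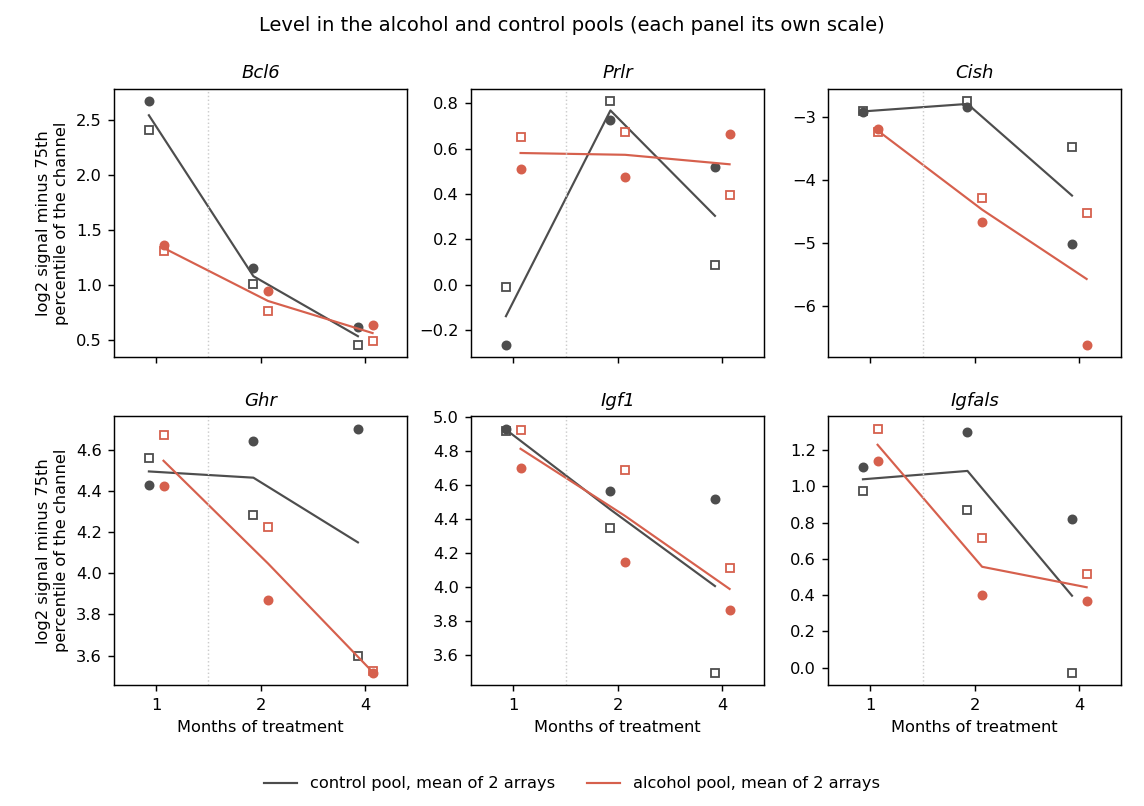
Log2 signal minus the 75th percentile of the channel (vertical axis, its own scale in each panel) in the control pools (grey) and alcohol pools (red) after 1, 2 and 4 months (horizontal axis); filled circles are the array with alcohol in Cy5, open squares the array with alcohol in Cy3, lines join the means of the 2 arrays, and the dotted line separates the slides. The control level of Bcl6 moved from 2.54 to 0.53 and that of the alcohol pools from 1.34 to 0.56.

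Cish encodes an inhibitor that STAT5 induces and that in turn limits signalling from the receptor. It was lower in the alcohol pool on all 6 arrays. Its ratios were -0.27 and -0.33 on the 1-month arrays, -1.81 and -1.53 on the 2-month arrays and -1.60 and -1.04 on the 4-month arrays. The averages were -0.30 (SD 0.044), -1.67 (SD 0.20) and -1.32 (SD 0.40), each larger in size than the SD of its pair. Over the 3 months the limma estimate was -1.10 (SE 0.27), the farthest from 0 among the 9 genes by their brightest probes, with an unadjusted p of 0.0107 and an adjusted p of 0.620.

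In the alcohol pools Cish was well above background on 5 of 6 arrays. In scanner units the processed signals of the alcohol pool were 121 and 110 on the 1-month arrays, 66.6 and 66.8 on the 2-month arrays and 26.5 and 89.5 on the 4-month arrays, and those of the control pool 145 and 138, 233 and 193, and 80.5 and 184. The alcohol pool was not well above background on the 4-month array with alcohol in Cy5, so at 4 months 1 of 2 arrays measured it. With normexp background correction and loess normalization the ratios were -0.21, -1.30 and -0.84, smaller in size and in the same direction. The log2 level was -2.91, -2.79 and -4.24 in the control pools and -3.21, -4.47 and -5.57 in the alcohol pools, and only the step from 2 to 4 months lies within 1 slide. That step was -1.45 in the control pools by the 75th percentile (-2.17 and -0.73 on the 2 pairs of arrays with the same dyes) and -1.06 after Aquantile normalization. In the alcohol pools it was -1.10 (-1.96 and -0.24) and -0.59. The summed level of the hepatocyte markers was also lower at 4 than at 2 months in both pools, and its part in this step and in that of Bcl6 was not tested.

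Socs2, the other feedback inhibitor, gave no such difference. Its brightest probe read 0.22 and -0.17 on the 1-month arrays, 0.12 and -0.25 on the 2-month arrays and 0.38 and -0.26 on the 4-month arrays. The array with alcohol in Cy5 was above 0 and the other below 0 in every month, so that the averages, 0.022, -0.062 and 0.062, lay inside an SD of 0.26 to 0.45. The second Socs2 probe, A_52_P84037, failed the background test in both pools of 1 month and in the control pool of 4 months, and gave no usable limit there.

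Ghr was measured by 5 probes. At 1 month all 5 averages lay between -0.17 and 0.054. At 4 months the 3 brightest probes averaged -0.63, -0.60 and -0.64, each past 1.5-fold, and at 2 months -0.41, -0.45 and -0.67, of which 1 passed. The pairs differed widely, since the brightest probe gave -0.76 with alcohol in Cy5 and -0.059 with alcohol in Cy3 on the 2-month arrays, and -1.19 and -0.069 on the 4-month arrays. The 4-month average of -0.63 was smaller in size than the SD of 0.79 between its arrays. With normexp and loess the average was -0.57, under 1.5-fold.

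At 4 months the arrays differed in the control pool. It read 67572 in Cy3 on one array and 24770 in Cy5 on the other, while the alcohol pool read 29720 and 23613. At 2 months the log2 levels differed between the arrays in both pools, at 3.87 and 4.22 in the alcohol pool and 4.64 and 4.28 in the control pool. The 2 dimmer probes of Ghr, A_52_P633550 and A_52_P54106, had tighter pairs, with averages of -0.30 and -0.28 at 2 months and -0.27 and -0.29 at 4 months, none past 1.5-fold. All 5 probes were below 0 on both arrays at 2 and at 4 months. The limma estimate of the 5 probes ranged from -0.49 to -0.18, with adjusted p from 0.620 to 0.634. That of the brightest probe, -0.33, was -0.52 without month 1 and -0.18 without month 4, and -0.65 on the arrays with alcohol in Cy5 against -0.0052 on the others.

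The transcription factors moved little. Stat5a gave 0.057 and 0.23 on the 1-month arrays, -0.050 and 0.051 on the 2-month arrays and 0.11 and 0.14 on the 4-month arrays, with a limma estimate of 0.089 (SE 0.064, adjusted p 0.735). Of the 3 probes of Stat5b the averages over all months lay between -0.21 and 0.16. The brightest, A_52_P663027, read 0.57 and -0.48 on the 2 arrays of 4 months, which average to 0.045 (SD 0.74).

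That Stat5b probe also differed between slides in both pools, by 1.92 in the alcohol and 2.09 in the control pools from 1 to 2 months. For the other 2 Stat5b probes the direction of that step depended on the scaling. The accession of the brightest probe was not in the RefSeq table used, and which part of the gene it detects was not checked.

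Igf1, the growth factor that the liver releases into blood, gave opposite signs on the 2 arrays of a month. Its brightest probe read -0.23 and 0.0064 on the 1-month arrays, -0.41 and 0.35 on the 2-month arrays and -0.65 and 0.62 on the 4-month arrays, the first value of each pair with alcohol in Cy5. The averages were -0.11 (SD 0.17), -0.031 (SD 0.53) and -0.015 (SD 0.90). The probe A_51_P147942, printed in 10 spots per array, gave -0.30 and -0.13, -0.46 and 0.21, and -0.47 and 0.60. Its 10 spots agree within one array, from 0.42 to 0.72 on the 4-month array with alcohol in Cy3 and from -0.61 to -0.27 on the other. The split thus lay between arrays and not between spots. In every month both of these probes read lower on the array with alcohol in Cy5 than on the other.

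The third Igf1 probe, A_52_P306327, which carries the accession AK050118, behaved otherwise. It was lower in the alcohol pool on all 6 arrays, with -0.54 on both 1-month arrays, -1.28 and -1.26 on the 2-month arrays and -0.63 and -0.46 on the 4-month arrays. The pair agrees to within an SD of 0.12 in every month. The averages were -0.54, -1.27 and -0.54, or 1.45-fold, 2.41-fold and 1.45-fold lower, and the limma estimate was -0.78 (SE 0.17, unadjusted p 0.00594, adjusted p 0.620). This accession was not in the RefSeq table used, so which Igf1 transcript or part of it the probe detects was not checked. Different probes of Igf1 thus disagree, and the averages of the other 2 did not exceed the spread of their pairs at 2 and 4 months.

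Igfals encodes the acid-labile subunit that keeps IGF1 in the circulation. Its single probe gave 0.036 and 0.35 on the 1-month arrays, -0.89 and -0.15 on the 2-month arrays and -0.45 and 0.55 on the 4-month arrays. The averages, 0.19 (SD 0.22), -0.52 (SD 0.52) and 0.049 (SD 0.71), lay within or at the spread of the pair. In the control pools its log2 level was 1.04, 1.08 and 0.40, and in the alcohol pools 1.23, 0.56 and 0.44.

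**Figure D3:**
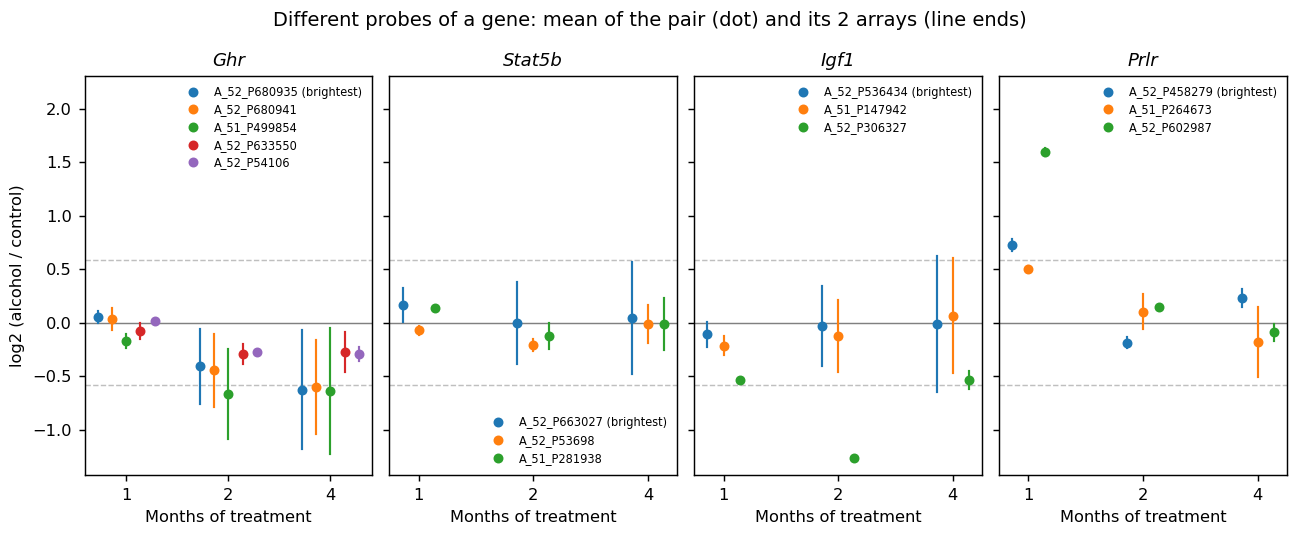
Log2 ratio of alcohol over control (vertical axis) after 1, 2 and 4 months (horizontal axis) for every probe of Ghr, Stat5b, Igf1 and Prlr; dots are means of the pair, line ends its 2 arrays, and dashed lines 1.5-fold. The Igf1 probe A_52_P306327 lies at -1.27 at 2 months while the other Igf1 probes straddle 0, and all 3 Prlr probes lie above 0 at 1 month.

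Of 17 other genes of growth hormone receptor signalling on the array, among them kinases, adaptors and phosphatases that act below the receptor, 0 were raised and 0 lowered past 1.5-fold in any month, where between 0.507% and 1.95% of all gene names were called in a direction, and the medians of their log2 ratios were -0.0042, 0.018 and -0.019 in the 3 months. Jak2, the kinase bound to the receptor, averaged -0.0042, -0.046 and 0.0057. Of 14 other genes of the IGF axis 1 was raised at 2 and at 4 months and 0 were lowered in any month. That gene was Igfbp1, a binding protein for IGF1 that rises when insulin is low, at -0.23, 1.97 and 2.74. Igfbp2 averaged 0.14, 0.14 and 0.25 and Igfbp3, the main carrier of IGF1 in blood, 0.12, -0.041 and -0.13, all within 1.5-fold.

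Of 12 other liver genes known to respond to growth hormone, 1 was raised and 1 lowered at 1 month, 1 raised and 0 lowered at 2 months, and 4 raised and 0 lowered at 4 months. Cd36, a fatty acid transporter, was the raised gene at 1 month and Egfr, the receptor for epidermal growth factor, the lowered one. Gadd45g, Cux2, Vldlr and Fgf21 were the 4 raised at 4 months. Between 0.507% and 1.95% of all gene names were called in each month and direction. Fgf21, a hormone that the fasted liver secretes, averaged 1.85 at 2 months and 0.78 at 4 months after -0.17 at 1 month.

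Some genes that differ between male and female liver were called in every month. Their lists were chosen with earlier results of these data known, so the counts are a description and not a test. At 1, 2 and 4 months 0.562%, 1.18% and 1.30% of all gene names were lowered. Of 12 male-predominant genes 8, 5 and 7 were lowered in these months and 0 were raised. The 8 include Moxd1, which failed the background test on both arrays in the alcohol pool and on 1 of 2 in the control pool. No firm limit can be given for its ratio. Hsd3b5, a steroid dehydrogenase, averaged -2.93, -2.04 and -4.83, Cyp7b1, an oxysterol hydroxylase, -1.55, -1.42 and -1.64, the urinary protein gene Mup3 -0.89, -0.77 and -2.23, and the complement gene C6 -1.31, -0.70 and -1.23. These 4 were lowered in every month. Slco1a1, an organic anion transporter, was lowered at 1 and 4 months (-1.75 and -1.11) and Selenbp2 at 1 and 2 months (-1.61 and -0.97).

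Of 14 female-predominant genes 8, 7 and 10 were raised at 1, 2 and 4 months and 0 were lowered. Over all gene names 0.507%, 1.05% and 1.95% were raised. Cyp2b13 averaged 3.40, 2.88 and 2.36 and Cyp2b9 2.73, 1.11 and 1.87. Cyp2a4, a steroid hydroxylase, averaged 0.70, 0.87 and 1.19 and the peroxisomal transporter Abcd2 1.40, 0.89 and 1.70. Cyp3a16, Cyp3a41a and Cyp3a44 were raised in every month, by 0.84 each at 1 month and by 2.44, 2.08 and 2.28 at 4 months, and are close relatives whose probes may detect each other's RNA. The 2 lists had medians of -1.26, -0.40 and -1.04 and of 0.77, 0.59 and 1.78, and the adjusted p of the named genes of both lists by limma was 0.106 or higher. Prlr, itself female-predominant, was raised with the second list at 1 month and not at 4 months, and Bcl6, itself male-predominant, was lowered with the first at 1 month and not at 4 months; whether their ratios differ from those of the lists was not tested.

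**Figure D4:**
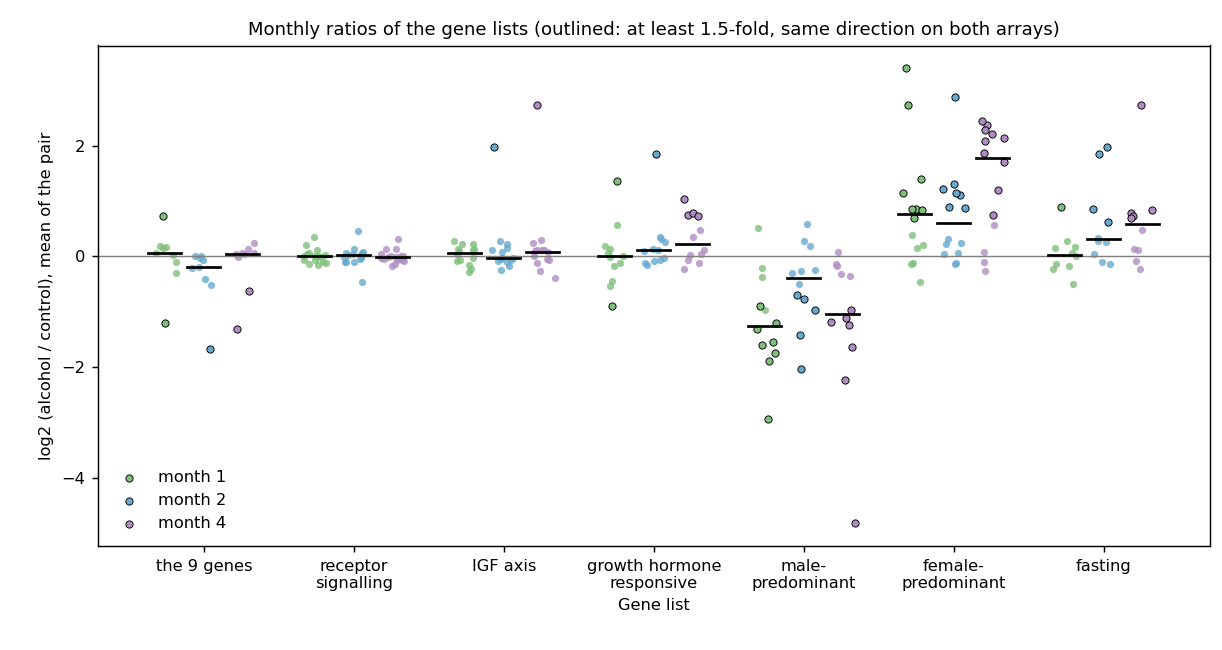
Log2 ratio of alcohol over control (vertical axis, mean of the pair) of each gene in 7 lists (horizontal axis) after 1, 2 and 4 months; outlined points passed 1.5-fold with the same direction on both arrays, and bars are medians. Receptor signalling genes lie near 0. The medians of the male-predominant and female-predominant lists lie on opposite sides of it, at -1.04 and 1.78 at 4 months. Some genes of each list lie on the other side. The lists were chosen with earlier results of these data known.

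Feeding state and time of day also act on this pathway, so genes of both were read on the same arrays. Over all gene names 0.507%, 1.05% and 1.95% were raised at 1, 2 and 4 months. Of 10 genes known to rise in fasted liver 1, 4 and 5 were raised in these months and 0 were lowered. Beside Igfbp1 and Fgf21 they were Pdk4, a kinase that restrains glucose oxidation, at 0.86 at 2 months and 0.84 at 4 months, Tat, which degrades tyrosine, at 0.61 at 2 months and 0.69 at 4 months, and at 4 months G6pc. The 4-month value of Tat came almost wholly from 1 array (1.34 and 0.029, SD 0.93). The call at 1 month was also Pdk4, which failed the background test on both arrays in the control pool and on 1 of 2 in the alcohol pool. No firm limit can be given for that ratio. Of 12 genes of the clock and its output 0 were called at 1 month, and Dbp was lowered at 2 months. At 4 months Dbp and Nr1d1 were lowered and Npas2 was raised. Over all gene names 1.18% were lowered at 2 months, and 1.30% were lowered and 1.95% raised at 4 months. Dbp, an output gene of the clock, averaged -0.27, -1.0 and -0.81. The part of feeding or of the hour of collection in the Cish ratios was not tested.

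Cish has the mean ratio farthest from 0 among the members, and the 18092 probes that have a RefSeq symbol and passed the background test in every channel were ranked by likeness to it. The measure was the root mean square difference over the 6 array log2 ratios. Nudt7, a peroxisomal hydrolase of coenzyme A, was nearest at 0.386 and averaged -0.42, -1.04 and -1.20 at 1, 2 and 4 months. Adgrv1 followed at 0.440 with -0.19, -1.08 and -0.98, and Rnf186 at 0.468 with 0.11, -0.98 and -1.30. All 3 were nearer to 0 than Cish at 2 months, where Cish was at -1.67. One of the 6 ratios of Cish comes from the 4-month array on which its alcohol pool was not well above background. Over the other 5 arrays, a choice made after seeing the data, the nearest were Adgrv1 at 0.401, Sucnr1 at 0.421 and Nudt7 at 0.422, so Rnf186 was no longer among them.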

How the data were processed

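Liver RNA pools of 6 mice were compared on two-color arrays, an alcohol pool against a control pool at 1, 2 and 4 months, each on a dye-swapped pair of arrays. The authors deposited scanner output of Agilent Feature Extraction 9.1.1.1, per the file headers, which holds a background-corrected, dye-normalized signal intensity per channel and a log10 ratio per spot. The authors also deposited a table of log10 ratios of the same arrays, already turned to alcohol over control, which correlated with the scanner ratios at 0.999 or higher and was used as an alternative. Its columns have a median of 0, and whether its rows were centred further is not stated in the sources used here.

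Ratios were turned to alcohol over control, converted to log2, averaged over spots of a probe and then over both arrays of a month, following the study's methods. Control spots were dropped, and no spot was flagged as an outlier. All 37922 probes that passed the background test in any channel of any array were tested with limma 3.58.1 in R 4.3.3, two-sided, with Benjamini-Hochberg adjustment over all of them at 0.05. The log2 ratio was tested against 0, with the 3 months as replicates, and as a slope on treatment time in log2 months. Both tests were tried on simulated data. A pool level is the log2 signal minus the 75th percentile of the channel, and precision is limited by the number of arrays. Alternatives were normexp correction (offset 50) with loess, the deposited table, an error-weighted pair average, each array of a pair alone, median centring, filters on dim probes, the mean over probes of a gene, leaving out each month, the slide as a term, another time scale, an unmoderated test and other thresholds and channel scalings. Named genes are the members, the genes of the lists past 1.5-fold in the same direction in at least 2 months, Jak2, Igfbp1, Igfbp2 and Igfbp3, and the 3 genes most like Cish (Sucnr1, from a repeat over fewer arrays, was added after the data were seen). The genes of smaller calls in lists (Cd36, Egfr, Gadd45g, Cux2, Vldlr, G6pc, Nr1d1 and Npas2) were named after their values were seen, as were the markers. The members and lists were chosen with earlier results of these data known. Gene symbols came from the array or, for 22951 probes, from RefSeq accessions. The remaining work was done in Python 3.11.15 with pandas 2.3.3, numpy 2.4.6 and matplotlib 3.10.9.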

Additional observations from a re-analysis of the deposited data

Results flagged for a closer look

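In Bcl6, Prlr and Igfals both arrays of one month lay above 0 and both arrays of another below it, and none of these differences was tested. Bcl6 and Prlr passed 1.5-fold only at 1 month and Igfals at none of the 3 months. For Bcl6 the log2 ratio at 4 months was higher by 1.24 than at 1 month and by 0.25 than at 2 months. For Prlr the ratio at 2 months minus that at 1 month was -0.91, and at 4 months it was higher by 0.42 than at 2 months. For Igfals the ratio at 2 months minus that at 1 month was -0.71. Each comparison with 1 month also compares the 2 slides.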

How the results depend on the processing

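The effect of alcohol over the months gave 0 calls by limma, and 9 with normexp and loess and 6 of 27900 probes with the filter on both channels. None of the 9 genes passed the adjusted threshold under any alternative run. Without each month in turn the count was 0 in all 3 fits. The change with treatment time gave 0 calls, and 50 with normexp and loess. At 1 month the count of raised members went from 1 to 0 at a 2-fold threshold. At 2 months the count of lowered members went from 1 to 3 on the arrays with alcohol in Cy5 alone (with Ghr and Igfals) and to 0 with the filter on both channels, which Cish does not pass. At 4 months the count of lowered members went from 2 to 1 with normexp and loess, on the arrays with alcohol in Cy3 alone, with the mean over the probes of a gene, at a 2-fold threshold, and with the filter on both channels. It is Ghr that is lost in the first 4 of these and Cish in the last. Igf1 was called in opposite directions by the 2 arrays of 4 months: with alcohol in Cy5 alone it was the third lowered member, and with alcohol in Cy3 alone the raised members went from 0 to 1, Igf1.

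Estimates over the months that changed sign were all of genes within 1.5-fold. On the arrays with alcohol in Cy3 alone they were -0.29 for Stat5b, -0.23 for Socs2, 0.32 for Igf1 and 0.25 for Igfals. With the mean over probes they were -0.011 for Stat5b and -0.14 for Socs2, and when each month was left out in turn they ranged from -0.020 to 0.042 for Socs2 (below 0 without month 1 or 4) and from -0.24 to 0.12 for Igfals (above 0 without month 2). Leaving out each month in turn moved the estimates from -0.52 to -0.18 for Ghr, from -0.71 to -0.094 for Bcl6 (the latter without month 1) and from 0.020 (without month 1) to 0.48 for Prlr. Slopes that changed sign were those of Stat5a with normexp and loess (0.00626), on the arrays with alcohol in Cy5 alone (0.027) and on the month itself (0.00374), of Stat5b (0.12) and Igf1 (-0.21) on the arrays with alcohol in Cy5 alone, of Socs2 (-0.042) and Igfals (0.10) on those with alcohol in Cy3 alone, and of Socs2 with the mean over probes (-0.11). The causes were not tested. No paired analysis was possible because each array already holds both pools of a month, so that every ratio is taken within an array. With 1 pool per diet and month, only the 2 arrays of a pair give a spread within a month.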
